A study of Rattus norvegicus with 9 samples.

Results

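The Egr family consists of the zinc-finger transcription factors Egr1, Egr2, Egr3 and Egr4. They were followed in freshly dispersed rat adrenal zona glomerulosa cells, the outer cortical layer that makes aldosterone. All probe sets whose single gene symbol is one of these 4 names were taken, which gave 6 of the 31042 probe sets that are not controls and 4 of the 14217 genes named by a probe set of their own. Egr1 and Egr3 had 1 probe set each, and Egr2 and Egr4 a bright and a dim one each. The study divided each of 3 independent cell preparations into 3 tubes, kept for 2 h at 37 °C. One tube was a control in albumin-containing medium, one received angiotensin II (Ang II, 100 nM) and one received raised potassium (16 mM). No genetic change is stated for any tube, all tubes shared the enzymatic and mechanical dispersion, and the labels give no strain, sex or number of animals. Each tube was read on 1 Affymetrix whole-genome oligonucleotide array for the rat, so every group held 3 arrays and the series 9.

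Egr proteins are made by immediate early genes, which are transcribed within minutes of a stimulus without new protein synthesis. Growth factor, hormone and calcium signals reach their promoters through MAP kinases and through serum response factor (Srf) with its ternary complex partners of the Elk family. Cyclic AMP response element binding protein (CREB) and its relatives form another route. The Egr proteins bind GC-rich DNA through 3 zinc fingers, and the corepressors Nab1 and Nab2 bind the Egr proteins themselves and limit their activity. In zona glomerulosa cells Ang II acts through a receptor coupled to phospholipase C and calcium, and raised potassium depolarises the cell and opens calcium channels.

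Promoters from RefSeq (assembly GRCr8) were on hand for 3 of the 4 genes, Egr1, Egr2 and Egr4, each covering 250 bases before and 50 after the gene start. These are also the 3 genes of the family with a probe set that passed a test below. Capitals mark every exact CArG box, the binding sequence of Srf, counted only as CC, a run of A and T bases, and GG without a mismatch. They also mark every cyclic AMP response element core TGACG, which reads CGTCA where it lies on the other strand. The Egr1 window is chr18:26736828-26737127 on the plus strand, the Egr2 window chr20:21054392-21054691 on the minus strand and the Egr4 window chr4:119607768-119608067 on the minus strand. All are written 5′ to 3′ along the gene.
Egr1: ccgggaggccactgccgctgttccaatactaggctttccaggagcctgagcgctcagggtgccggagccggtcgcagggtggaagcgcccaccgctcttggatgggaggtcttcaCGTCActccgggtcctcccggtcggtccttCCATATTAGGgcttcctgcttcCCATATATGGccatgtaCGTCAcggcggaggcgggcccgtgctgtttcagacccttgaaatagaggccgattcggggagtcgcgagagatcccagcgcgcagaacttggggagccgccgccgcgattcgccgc
Egr2: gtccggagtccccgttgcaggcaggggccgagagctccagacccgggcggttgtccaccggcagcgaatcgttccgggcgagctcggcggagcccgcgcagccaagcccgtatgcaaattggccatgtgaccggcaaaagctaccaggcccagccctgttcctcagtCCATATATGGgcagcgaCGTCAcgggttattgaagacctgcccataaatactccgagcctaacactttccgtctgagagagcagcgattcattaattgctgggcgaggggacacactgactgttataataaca
Egr4: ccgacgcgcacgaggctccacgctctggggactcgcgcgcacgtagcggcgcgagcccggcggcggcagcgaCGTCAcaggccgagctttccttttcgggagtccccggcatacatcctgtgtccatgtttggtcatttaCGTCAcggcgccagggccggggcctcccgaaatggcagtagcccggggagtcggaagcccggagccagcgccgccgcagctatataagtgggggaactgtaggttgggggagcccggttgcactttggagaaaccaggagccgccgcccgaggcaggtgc
The Egr1 window held 2 CArG boxes and the Egr2 window 1, while no exact box was found in the Egr4 window. Near matches were not searched for. The Egr4 window holds CCATGTTTGG, with a G among the A and T bases, shortly before its core from base -110. The box CCATATATGG lay from base -83 to base -74 in both Egr1 and Egr2, and a TGACG core followed from base -66 to base -62 in both, so the sequence and the spacing of the pair were the same in these 2 genes. Egr1 had a further box, CCATATTAGG, from base -105 to base -96 and a further core from base -135 to base -131. Egr4 had 2 cores, from base -178 to base -174 and from base -110 to base -106. Among 33469 RefSeq promoters of this length a CArG box was found in 1.64%, at least 2 boxes in 0.0209% (7 promoters), a TGACG core in 21.2%, and a box together with a core in 0.272%. The full element TGACGTCA (1.83% of promoters), the TATA sequence TATAAA (14.2%) and the Egr site GCGTGGGCG (0.544%) were found in none of the 3 windows on either strand. Here too only exact strings were searched for, and the Egr4 window holds TATATAAG, which the string TATAAA misses. The ETS core CCGGAA (15% of promoters) was found once, in Egr2, and the GC box GGGCGG (33.1%) once each in Egr2 and Egr4. A match of letters describes the window only.

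**Figure D1:**
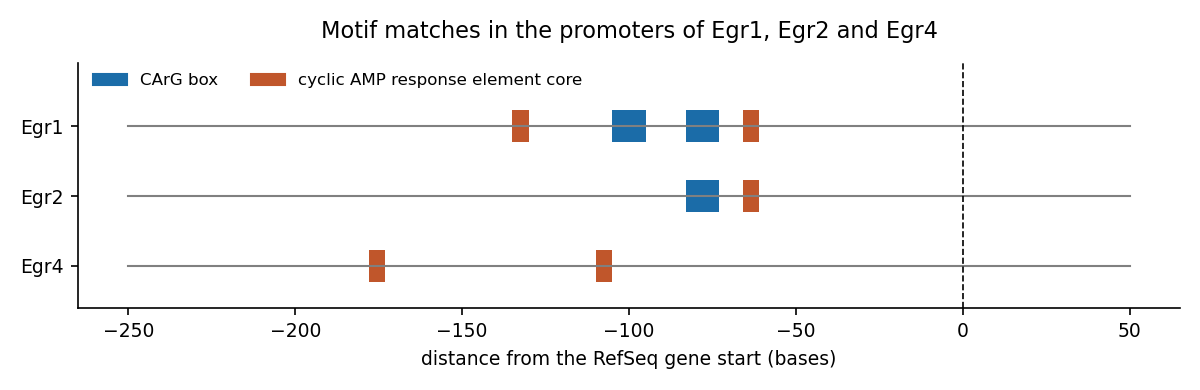
Positions of CArG boxes (blue) and cyclic AMP response element cores (orange) in the promoter windows of Egr1, Egr2 and Egr4, with the distance from the RefSeq gene start in bases on the x axis. The box from base -83 and the core from base -66 stand at the same places in Egr1 and Egr2, and Egr4 shows 2 cores and no exact box.

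Every array had the same trimmed mean signal, of about 500, and 18625 probe sets with the higher mean signals were tested. The median signal was 172.9 on control array 2 and at most 143.6 on the other 8. Among the marker genes, each read by its brightest tested probe set, only Star passed the test in any comparison, with 0.29 ± 0.06 after Ang II (adjusted p = 0.023) and 0.34 ± 0.06 after potassium (adjusted p = 0.0040). The former call ended in 12 of 21 alternative settings, and the other Star probe set passed after potassium (adjusted p = 0.030) and not after Ang II (0.12). Of the other tested probe sets of marker genes, 1 of Kcnk3, a potassium channel gene of zona glomerulosa, also passed after potassium (0.95 ± 0.26, adjusted p = 0.046), where its brightest did not (0.19 ± 0.13). Dab2, a marker of zona glomerulosa, had a signal of 11700 ± 285 (SD, n = 3) in the controls. Cyp11b2 had no probe set of that single symbol and was not analysed here. The summed signal of 5 zona glomerulosa markers ranged from 17061 to 18277 in the controls. After Ang II it was 16131 to 19339 and after potassium 16900 to 21751. Markers of other adrenal cells were present too. The summed signal of 2 zona fasciculata markers, Cyp11b1 and Akr1b7, ranged from 29774 to 34651 in the controls. It was 32090 to 33708 after Ang II and 31485 to 34110 after potassium. The summed signal of 5 medulla markers ranged from 2020 to 2764 in the controls, 1950 to 2656 after Ang II and 2038 to 3048 after potassium. That of 5 macrophage markers, of which Cd163 lay below the filter, ranged from 1857 to 2802, 1955 to 2642 and 1842 to 2185. That of 4 endothelial markers ranged from 13190 to 15850, 13639 to 15583 and 13970 to 15857, and that of 5 fibroblast and capsule markers from 12767 to 15366, 12371 to 15672 and 14335 to 16671, so the ranges of the groups overlapped. A change in the number of cells of a type and a change in RNA per cell cannot be told apart in such bulk samples. Below, a signal is a linear value with its SD over 3 arrays, and a log2 fold change is fitted on log2(signal + 16) with its standard error (SE). That scale understates the change of dim probe sets. Adjusted p-values are from the two-sided test of limma with the preparation as a block, adjusted over all 18625 probe sets, with a threshold of 0.05.

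Egr4, a family member best studied in nerve and germ cells, rose after Ang II and fell after potassium. Its bright probe set (1387442_at) gave control signals of 1241, 795 and 1074 in preparations 1, 2 and 3. After Ang II the signals were 2975, 1780 and 3017, and after potassium 707, 372 and 694. Every Ang II array lay above every control array and every potassium array below every control array, with preparation 2 lowest in each group. Ang II raised Egr4 2.45-fold, a log2 fold change of 1.29 ± 0.10 (95% interval of the fold 2.11 to 2.83, adjusted p = 4.1e-06). The increase ranked 26 among the 18625 tested probe sets. After potassium it fell, with a log2 fold change of -0.83 ± 0.10 (95% interval -1.04 to -0.62, adjusted p = 1.0e-04), to 0.564 of the control. The difference between the stimuli was tested directly. Ang II arrays stood 4.34-fold above potassium arrays (log2 2.12 ± 0.10, adjusted p = 1.1e-08), and the log2 differences within the 3 preparations were 2.05, 2.21 and 2.10. The difference ranked 7 among all tested probe sets in that direction. Without the replicate block the decrease after potassium no longer passed (adjusted p = 0.10). Without control array 2 the changes were 1.39 ± 0.10 after Ang II and -0.73 ± 0.10 after potassium, and both passed.

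The dim Egr4 probe set (1375784_at) lay below the filter on mean signal and was not tested. Its control signals were 42.5, 42.4 and 25.5. They were 107, 195 and 102 after Ang II and 51.7, 17.6 and 49.5 after potassium. The Ang II arrays lay above all others, and the potassium arrays overlapped the controls. In a fit without the filter its log2 fold change after Ang II was 1.48 ± 0.43, which did not pass (adjusted p = 0.15), and that after potassium was 0.02 ± 0.43 (adjusted p = 0.99), with a 95% interval from -0.89 to 0.94.

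Egr1, the member most widely used as a marker of cell stimulation, rose after Ang II and was lower after potassium. Its signals (1368321_at) were 15529, 13256 and 16308 in the controls, 20586, 18786 and 20368 after Ang II, and 12719, 12021 and 13358 after potassium. All Ang II arrays lay above all controls. The potassium arrays overlapped the controls slightly, although within each preparation the potassium tube was the lower. Ang II raised Egr1 1.33-fold (log2 0.41 ± 0.06, 95% interval 0.28 to 0.54, adjusted p = 0.0011), and the increase was 0.41, 0.50 and 0.32 in the 3 preparations. After potassium Egr1 had a log2 fold change of -0.24 ± 0.06 and passed as lower (95% interval -0.36 to -0.11, adjusted p = 0.027), with -0.29, -0.14 and -0.29 in the preparations. Set directly against potassium, Ang II left Egr1 1.57-fold higher (log2 0.65 ± 0.06, adjusted p = 8.0e-06). The array maxima were between 33568 and 42803, and whether the upper range of the arrays compressed these changes was not tested. The decrease after potassium was not secure, since 13 of 21 alternative settings ended its call. Among them were the fit without the replicate block (adjusted p = 0.17) and scaling every array to 1 median over all probe sets, which gave a log2 fold change of -0.12 and an adjusted p of 0.65. It also ended without control arrays 1 (adjusted p = 0.12) and 3 (0.13), without potassium arrays 1, 2 and 3 (0.14, 0.074 and 0.11), without Ang II array 1 (0.056) and without preparations 1 and 3 (0.26 and 0.18). The increase after Ang II ended without preparation 1 (adjusted p = 0.054).

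Egr2, which is required for hindbrain patterning and for myelination by Schwann cells, also rose after Ang II. The bright probe set (1387306_a_at) gave 833, 685 and 877 in the controls, 1259, 978 and 1254 after Ang II and 740, 580 and 641 after potassium. All Ang II arrays lay above all controls, and potassium arrays overlapped them. Ang II raised Egr2 1.45-fold (log2 0.53 ± 0.10, 95% interval 0.32 to 0.74, adjusted p = 0.0079). After potassium the log2 fold change was -0.28 ± 0.10 with a 95% interval from -0.49 to -0.07. It was below 0 in 3 of 3 preparations (-0.17, -0.23 and -0.44) and did not pass after adjustment (adjusted p = 0.12). The direct comparison passed, with Egr2 1.76-fold higher after Ang II than after potassium (log2 0.81 ± 0.10, adjusted p = 1.3e-04). The increase over control ended without the replicate block (adjusted p = 0.12), without control array 1 (0.065), without Ang II arrays 1 (0.060) and 3 (0.069) and without preparation 1 (0.15), and the direct comparison passed in all 21 alternative settings. The dim Egr2 probe set (1398266_a_at) lay below the filter, with control signals of 13.1, 85.8 and 49.8 that spanned those after Ang II (85.2, 18.4 and 82.8) and potassium (75.1, 48.3 and 30.0).

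Egr3, known from muscle spindle development and from lymphocytes, passed in no comparison. Its signals (1369545_at) were 162, 110 and 159 in the controls, 137, 142 and 172 after Ang II, and 141, 133 and 102 after potassium, and the 3 groups overlapped. The log2 fold change was 0.07 ± 0.25 after Ang II (95% interval -0.46 to 0.60, adjusted p = 0.93) and -0.17 ± 0.25 after potassium (95% interval -0.70 to 0.36, adjusted p = 0.78). The interval after Ang II would hold changes of the size seen for Egr1 and Egr2, though not that of Egr4, so a small change in Egr3 was not detectable at this precision.

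**Figure D2:**
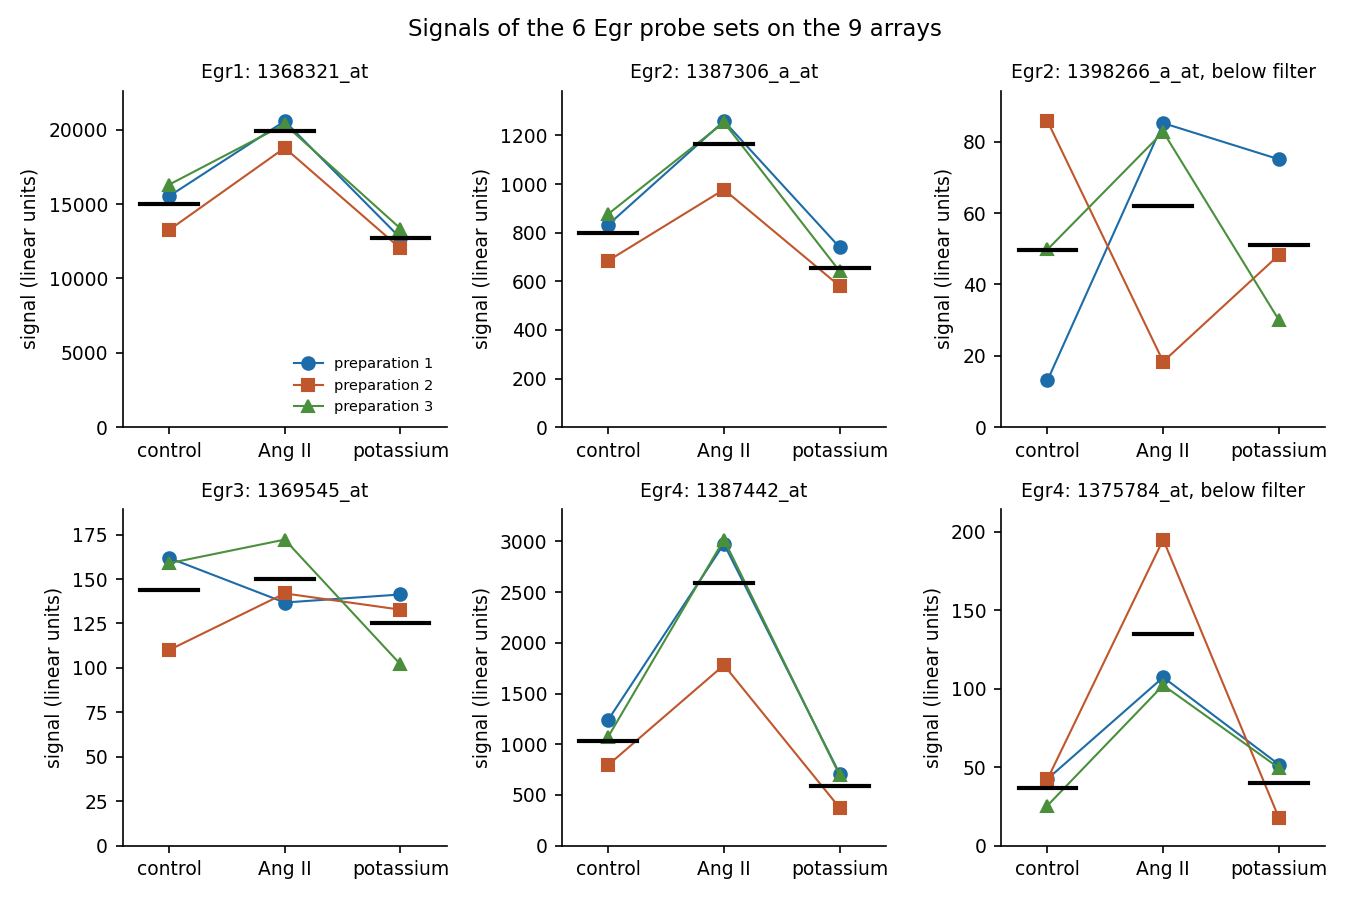
Linear signals of the 6 Egr probe sets (y axis) in control, Ang II and potassium tubes (x axis). Lines join the 3 tubes of 1 preparation and black bars are group means (n = 3). Egr4, Egr1 and Egr2 peak after Ang II in all 3 preparations at their bright probe sets, Egr3 and the dim Egr2 probe set show no common order, and the dim Egr4 probe set is highest after Ang II.

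Among the 4 tested Egr probe sets, 3 rose after Ang II, where 1.64% of all tested probe sets rose, and none fell, where 0.526% did. After potassium 2 of the 4 fell, where 2.59% of all tested probe sets fell, and none rose, where 2.8% did. In the direct comparison 3 of the 4 were higher after Ang II, against 3.1% of all tested, and none was lower, against 1.7%. Calls in either direction made up 4.79% of all tested there. All 3 Ang II signals exceeded all 3 control signals for 3 of the 4 Egr probe sets and for 7.3% of all tested, and they exceeded all 3 potassium signals for the same 3 and for 9.71% of all tested. All 3 potassium signals fell below all controls for 1 of the 4, Egr4, and for 9.79% of all tested. For Egr4, Egr1 and Egr2 the mean signal was therefore highest after Ang II, lower in the control and lowest after potassium. The step from control to potassium passed for Egr4 and Egr1 and not for Egr2. The 2 comparisons with control share the control arrays, and the direct comparison does not use them. The 95% interval of the Egr4 change after Ang II lay wholly above those of Egr1 and Egr2, whose own intervals overlapped. The median log2 fold change of all tested probe sets was -0.03 after Ang II and -0.02 after potassium. Scaling every array to 1 median over all probe sets moved these to 0.09 and 0.10, and Egr4 was then at 1.41 and -0.71, Egr1 at 0.53 and -0.12, and Egr2 at 0.65 and -0.16.

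**Figure D3:**
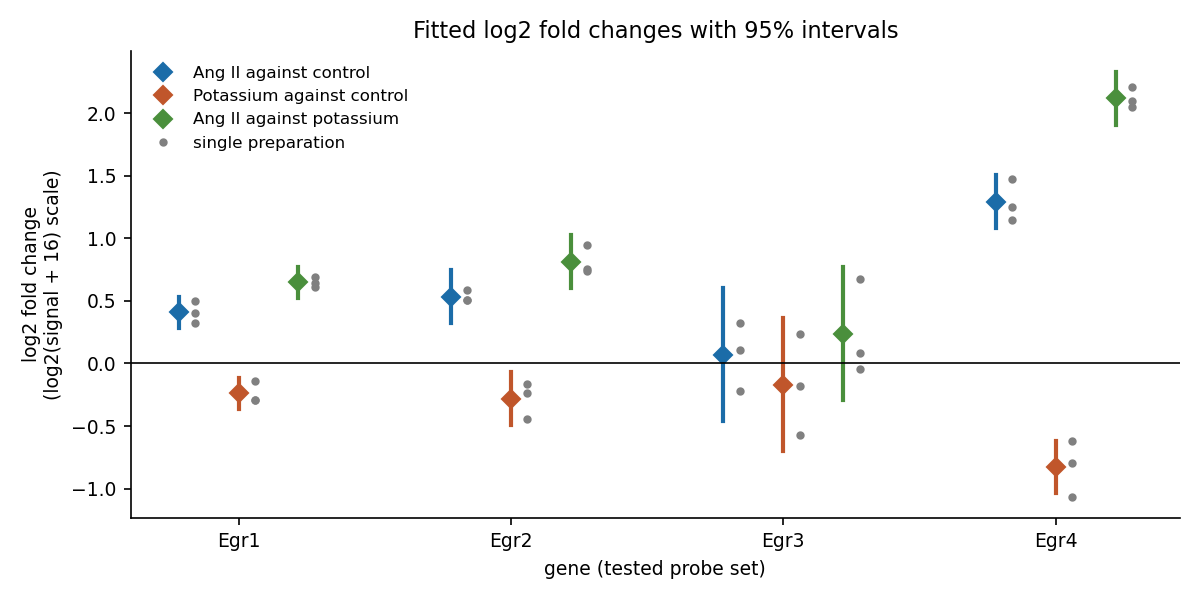
Fitted log2 fold changes (diamonds, y axis, log2(signal + 16) scale) with 95% intervals (bars) for the tested probe set of each Egr gene (x axis), in the 3 comparisons, with the differences in the single preparations as grey points. For Egr1, Egr2 and Egr4 the values after Ang II lie above 0, those after potassium below 0 and those of the direct comparison above 0 in each preparation, and the points of Egr3 fall on both sides.

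The factors that act on Egr promoters were followed next, in a list of 12 genes of which 11 were tested. In all lists a gene is counted by its brightest tested probe set. Srf, whose product binds the CArG box, fell after potassium and was not called after Ang II. Its brighter probe set gave 1617, 2118 and 2023 in the controls, 1838, 2074 and 2058 after Ang II and 1018, 1316 and 1473 after potassium. The potassium arrays lay below all others. The log2 fold change of Srf was -0.60 ± 0.09 after potassium (adjusted p = 6.2e-04) and 0.06 ± 0.09 after Ang II (adjusted p = 0.82), and Srf was higher after Ang II than after potassium by 0.66 ± 0.09 (adjusted p = 2.9e-04). The dimmer Srf probe set gave -0.77 ± 0.23 after potassium, which did not pass (adjusted p = 0.064), and -0.45 ± 0.23 after Ang II (adjusted p = 0.39), so the probe sets differ in sign after Ang II. The Srf promoter itself held 2 CArG boxes and 1 TGACG core. Crem, which encodes activators and the repressor ICER of cyclic AMP responsive genes, rose after both stimuli, by 0.45 ± 0.08 after Ang II (adjusted p = 0.0077) and by 0.69 ± 0.08 after potassium (adjusted p = 1.2e-04). These are values of the brightest of its 6 tested probe sets, 1 of which had the opposite sign after Ang II. In the direct comparison 4 of the dimmer ones passed as lower after Ang II than after potassium, with -0.50 to -1.12, and the brightest did not pass (-0.23 ± 0.08, adjusted p = 0.16). Elk1, Elk3 and Elk4, the ternary complex factors, had log2 fold changes of -0.02, 0.04 and -0.07 after Ang II and of -0.11, 0.13 and -0.07 after potassium, and Creb1 had -0.02 and 0.16. None of these passed. Crtc3, a CREB coactivator, stood at -0.43 after Ang II (adjusted p = 0.077) and -0.32 after potassium (adjusted p = 0.14). Of the 11, 1 rose and none fell after Ang II, and 1 rose and 1 fell after potassium, with medians of -0.02 and -0.07. All tested probe sets were called in 2.17% and 5.39% of cases.

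The chain that links receptors to Srf, from adaptors, exchange factors and Ras to the MAP kinases, was measured for 12 of 19 listed genes, and none passed after either stimulus in limma's test, where 2.17% and 5.39% of all tested probe sets did. At an unadjusted p of 0.05, 1 of the 12 did so after Ang II and none after potassium, against 14.5% and 18.8% of all tested. Map2k1, which encodes the MAP kinase kinase MEK1, had log2 fold changes of 0.21 after Ang II and -0.14 after potassium. It was higher after Ang II than after potassium by 0.35 ± 0.08 (adjusted p = 0.017). Of 21 alternative settings, 12 ended that call. The list's medians were 0.03 after Ang II and 0.02 after potassium.

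The corepressor Nab2, whose transcription is itself raised by Egr proteins in other cells, fell after potassium. Its signals were 538, 737 and 472 in the controls, 498, 613 and 455 after Ang II, and 307, 417 and 403 after potassium. The potassium arrays lay below all others, and the Ang II arrays overlapped the controls. The log2 fold change of Nab2 was -0.60 ± 0.14 after potassium (adjusted p = 0.018), -0.14 ± 0.14 after Ang II (adjusted p = 0.71), and 0.46 ± 0.14 for Ang II against potassium (adjusted p = 0.078). The call ended in 9 of 21 settings. They included the fit without the replicate block (adjusted p = 0.11), scaling to 1 median (0.058), the fits without control arrays 1 and 2 (0.089 and 0.11) and potassium arrays 1 and 2 (0.12 and 0.10), and those without preparations 1 and 2 (0.20 and 0.16). Nab1, the related corepressor, had 2 tested probe sets, whose signals moved differently after potassium. The brighter had a log2 fold change of 0.03 ± 0.07 (adjusted p = 0.88). The dimmer gave 1316, 1194 and 1092 in the controls, 1239, 1120 and 1400 after Ang II and 1623, 1694 and 1507 after potassium, and rose by 0.42 ± 0.10 after potassium (adjusted p = 0.027). Neither passed after Ang II.

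Genes described elsewhere as targets of Egr proteins were measured for 17 of 23 listed. After Ang II 5 rose and 1 fell, and after potassium 1 rose and 1 fell, where 2.17% and 5.39% of all tested probe sets were called. The medians were 0.15 after Ang II and 0.03 after potassium. F3, which encodes tissue factor, the cell-surface starter of blood clotting, gave 372, 407 and 425 in the controls, 1021, 700 and 974 after Ang II and 334, 422 and 373 after potassium. Only the Ang II arrays stood apart. F3 rose by 1.11 ± 0.15 on the log2 scale after Ang II (adjusted p = 5.9e-04), stood at -0.09 ± 0.15 after potassium, and was higher after Ang II than after potassium by 1.21 ± 0.15 (adjusted p = 1.5e-04). Gdf15, a stress-induced member of the TGF-beta family, gave 183, 167 and 276 in the controls, 567, 420 and 506 after Ang II and 238, 328 and 261 after potassium. It rose by 1.22 ± 0.19 after Ang II (adjusted p = 0.0024), which ended without preparation 1 (0.086), and exceeded its level after potassium by 0.82 ± 0.19 (adjusted p = 0.022), a difference that did not pass in 7 of the 21 settings. The cell cycle inhibitor gene Cdkn1a rose by 0.41 ± 0.08 and the urokinase gene Plau by 0.45 ± 0.09 after Ang II, and neither passed after potassium. The other tested probe sets of Cdkn1a (0.43 ± 0.17, adjusted p = 0.23) and Plau (0.14 ± 0.16, adjusted p = 0.76) did not pass after Ang II. After potassium that of Cdkn1a stood at 0.56 ± 0.17 (adjusted p = 0.067). In the direct comparison the brighter Cdkn1a probe set was higher after Ang II (0.38 ± 0.08, adjusted p = 0.017). That call ended in 9 of 21 settings, and the other probe set had the opposite sign there (-0.13 ± 0.17). The angiogenic factor gene Vegfa rose after both stimuli, by 0.29 ± 0.07 after Ang II and 0.53 ± 0.07 after potassium, and the cytokine gene Tnf fell after both at its brighter probe set (-0.34 ± 0.08 and -0.60 ± 0.08). The other Tnf probe set passed after neither and had the opposite sign after potassium (-0.13 ± 0.22 and 0.15 ± 0.22). That of Vegfa passed after potassium (0.84 ± 0.16) and not after Ang II (0.38 ± 0.16, adjusted p = 0.27). The calls after Ang II of Cdkn1a, Plau, Vegfa and Tnf ended in 9, 10, 16 and 12 of 21 alternative settings. Several listed genes did not pass in either comparison with control, among them Arc (0.44 after Ang II, adjusted p = 0.30), Sphk1, Icam1, Ccnd1, Tgfb1, Mmp14 and Cd44.

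Other immediate early genes of the serum response were measured for 14 of 15 listed. Of these 6 rose after Ang II and 3 after potassium, and none fell, with medians of 0.26 and 0.08. Of all tested probe sets 1.64% rose after Ang II and 2.8% after potassium. Csrnp1 rose by 0.82 ± 0.06 and 0.58 ± 0.06, and Dusp1, a phosphatase of MAP kinases, by 0.28 ± 0.07 and 0.31 ± 0.07 at its brighter probe set. The dimmer Dusp1 probe set rose more, by 0.70 ± 0.09 after Ang II (adjusted p = 4.1e-04) and 1.09 ± 0.09 after potassium (adjusted p = 2.2e-06), and was lower after Ang II than after potassium (-0.39 ± 0.09, adjusted p = 0.019), where the brighter did not pass (-0.03 ± 0.07). Junb, an AP-1 subunit, rose after both but more after potassium, by 0.46 ± 0.08 after Ang II and 1.11 ± 0.08 after potassium, with a direct difference of -0.65 ± 0.08 (adjusted p = 1.3e-04). That is the order opposite to Egr1, Egr2 and Egr4. Fosb (0.34 ± 0.06), Klf6 (0.40 ± 0.07) and the RNA-decay factor gene Zfp36 (0.38 ± 0.09) rose after Ang II, and their values after potassium were 0.13, -0.03 and 0.10, which did not pass. In the direct comparison Klf6 (0.44 ± 0.07, adjusted p = 0.0013), Ier5 (0.41 ± 0.08, adjusted p = 0.0057) and Csrnp1 (0.25 ± 0.06, adjusted p = 0.034) were higher after Ang II. Other Klf6 probe sets gave 0.53 ± 0.08 there, which passed, and 0.24 ± 0.10, which did not (adjusted p = 0.23). The latter probe set stood at 0.35 ± 0.10 after potassium (adjusted p = 0.052). Fos did not pass in either comparison with control, at 0.20 and 0.21. No gene of this list fell after potassium as Egr4 and Egr1 did, Ier5 having the lowest value at -0.15 ± 0.08 (adjusted p = 0.31). The calls after Ang II of Zfp36, Fosb and the brighter Dusp1 probe set ended in 12, 4 and 16 of 21 settings, that of the dimmer Dusp1 probe set in 1, and that of Csrnp1 in the direct comparison in 13. A CArG box was found in the promoters of 2 of the 11 listed genes with a RefSeq promoter on hand, Zfp36 and Klf6. The share over all RefSeq promoters searched was 1.64%. No promoter was on hand for Fos, Ier3, Csrnp1 and Atf3, and near matches were not searched for.

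Of zinc-finger factors with like GC-rich sites, 4 of 5 were tested. Klf4 rose after both stimuli, by 0.52 ± 0.08 after Ang II and 1.00 ± 0.08 after potassium, and was lower after Ang II than after potassium (-0.48 ± 0.08, adjusted p = 0.0013). Klf10 fell after Ang II (-0.89 ± 0.10, adjusted p = 1.0e-04), stood at -0.30 ± 0.10 after potassium (adjusted p = 0.094) and was likewise lower after Ang II than after potassium (-0.58 ± 0.10, adjusted p = 0.0022). Sp1 fell after potassium at its brightest probe set (-0.32 ± 0.07, adjusted p = 0.018), a call that did not hold in 10 of 21 settings. That probe set was higher after Ang II than after potassium (0.31 ± 0.07, adjusted p = 0.021), which ended in 11 of 21 settings. None of the 4 other tested Sp1 probe sets passed in any comparison. Of all tested probe sets 2.17% were called after Ang II, 5.39% after potassium and 4.79% between the stimuli. Wt1, whose zinc fingers resemble those of the Egr proteins, was dim and did not pass.

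**Figure D4:**
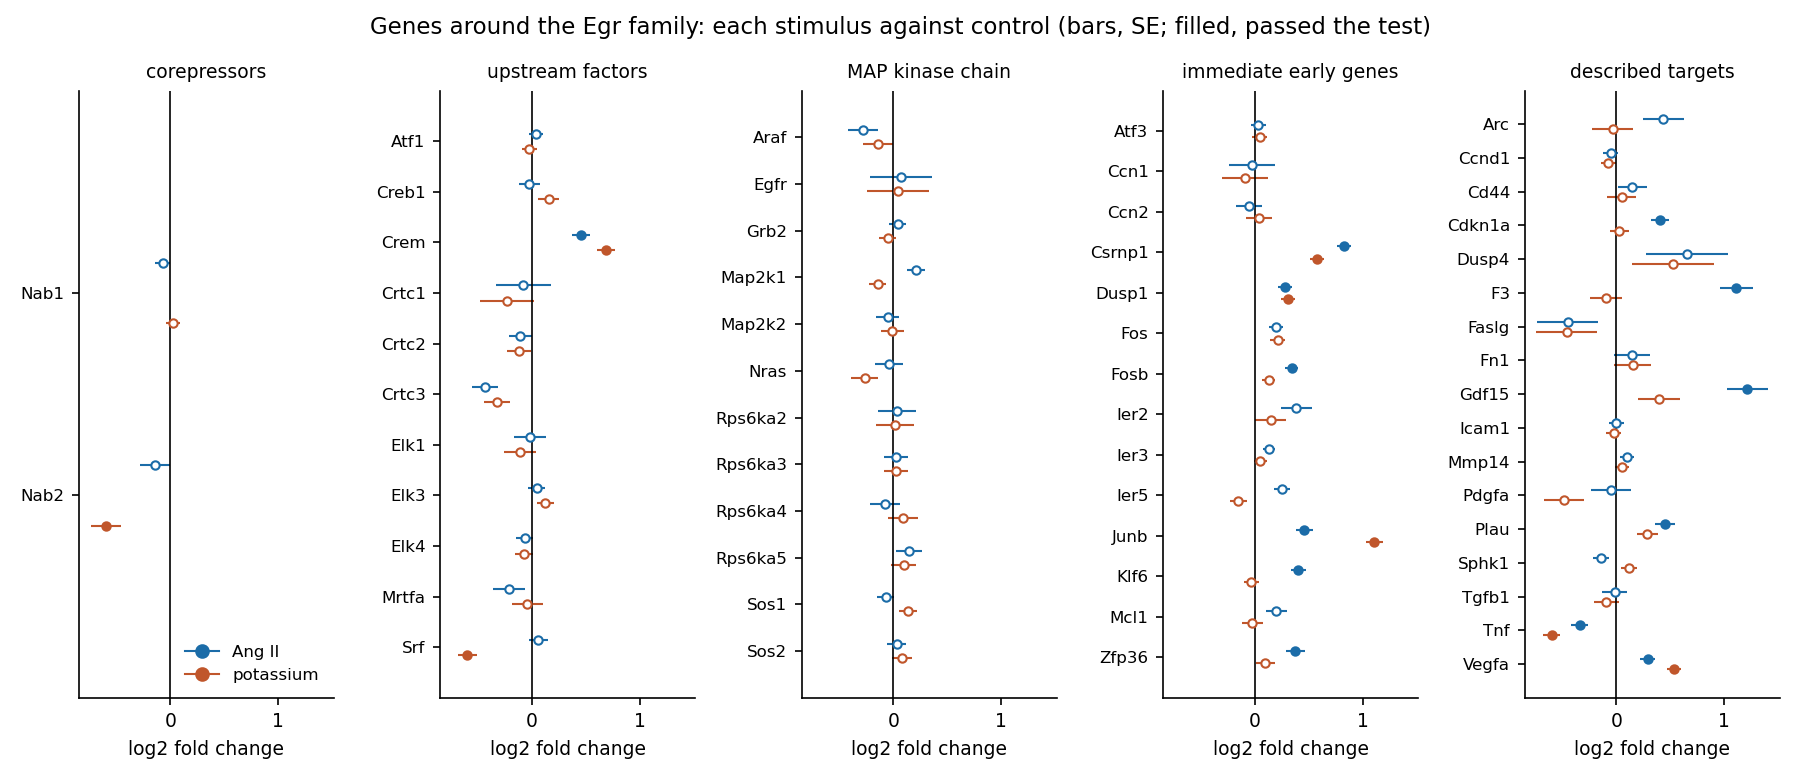
Log2 fold changes (x axis, log2(signal + 16) scale) after Ang II (blue) and potassium (orange) against control for the tested genes of 5 lists around the Egr family. Bars are SE and filled points passed the test. Srf and Nab2 stand below 0 after potassium and near 0 after Ang II, and F3 and Gdf15 stand apart among the described targets after Ang II.

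The genes whose pattern was most like that of each responding Egr probe set were found from the 6 log2 differences from control, 3 per stimulus, as the smallest root mean square difference. For Egr1 these were Bcr (0.062), a GTPase regulator, the guanylate-binding protein gene Gbp2 (0.087), the kinase gene Mast4 (0.092), Dusp5 (0.113), a nuclear phosphatase of ERK kinases, and Pip4p2 (0.126). Bcr rose by 0.41 ± 0.07 after Ang II and fell after potassium (-0.27 ± 0.07), and Gbp2 had 0.37 ± 0.06 and -0.25 ± 0.06, all passing. For Egr2 the nearest genes were Mast4 (0.106), the lipid droplet gene Plin2 (0.125), Pcf11 (0.129), Dusp5 (0.129) and Ppp1r12a (0.147). This Pcf11 probe set passed after neither stimulus (0.47 ± 0.19 and -0.37 ± 0.19). After potassium the other probe sets of Pcf11 (0.19 ± 0.09) and Pip4p2 (0.15 ± 0.14) had the opposite sign. Those of Ppp1r12a stood at -0.07, 0.15 and 0.43, and none of these values passed. Dusp5 rose by 0.50 ± 0.08 after Ang II and fell after potassium (-0.28 ± 0.08, adjusted p = 0.048). The calls after potassium of Bcr, Gbp2 and Dusp5 ended in 14, 13 and 15 of 21 settings. Egr1 and Egr2 differed from each other by 0.138 on the same measure, and from Egr4 by 0.784 and 0.696. The measure was not scaled by the size of a change, so larger changes alone can give larger differences. Egr4, with the largest changes of the 3, had no close neighbour. Its nearest, Bcat1 (0.386), an enzyme of branched-chain amino acids, and Tet3 (0.387), which oxidises methylated cytosine, rose after Ang II by 1.01 ± 0.18 and 1.01 ± 0.12, and stood at -0.52 ± 0.18 and -0.39 ± 0.12 after potassium without passing. They were followed by Pex11a (0.470), Haus6 (0.535) and Prkaa1 (0.571), which rose after Ang II and fell after potassium. Pex11a had 0.87 ± 0.12 and -0.48 ± 0.12, Haus6 0.75 ± 0.14 and -0.53 ± 0.14, and Prkaa1, which encodes a subunit of AMP-activated kinase, 0.59 ± 0.08 and -0.44 ± 0.08. Their calls after potassium ended in 13, 13 and 2 of 21 settings. The other tested probe set of Bcat1 (0.08 ± 0.26) did not pass after Ang II, and those of Pex11a (-0.35 ± 0.29) and Prkaa1 (0.21 ± 0.13, the opposite sign) did not pass after potassium. Another Tet3 probe set passed after Ang II (0.84 ± 0.12) and stood at -0.31 ± 0.12 after potassium. A further one did not pass after Ang II (0.72 ± 0.31, adjusted p = 0.30) and had the opposite sign after potassium (0.14 ± 0.31). These likenesses cover 9 arrays of 3 preparations in which both sets of differences share the controls, and they describe the pattern only.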

How the data were processed

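RNA of 9 tubes of rat zona glomerulosa cells was hybridised to 1 array each. The deposited values are linear intensity signals per probe set. GCOS is the tool named in the submitters' processing notes. How background was corrected and probes were summarised is not given in the sources used here. Without the top and bottom 2% of probe sets, the mean signal was 500.0 on each array, measured here from the deposited values. Groups and preparation numbers came from the sample titles. The platform annotation gave gene names, brought up to date with RefSeq (GRCr8), and 20826 probe sets had 1 symbol, 436 several and 9780 none.

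The 57 control probe sets were left out. Values were taken as log2(signal + 16), and the 18625 probe sets with a mean signal above the 40th percentile were fitted with limma 3.58.1 under R 4.3.3, using moderated statistics (eBayes) with an intensity trend. All 9 arrays entered 1 fit with the 3 groups and the preparation as a fixed block, with 4 residual degrees of freedom. P-values were Benjamini-Hochberg adjusted over each comparison. The fit was tested on simulated data. The changes put in were recovered without a shift in size, but the smallest of them were mostly not called, so a small change that did not pass is not shown to be absent. The pass mark of that test was lowered after its result was seen. The design text states that each preparation supplied 1 tube per group. As a check, deviations from group means correlated at 0.11 to 0.27 in the 9 pairs of arrays of 1 preparation and at -0.21 to 0.036 in the 18 other pairs.

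The Egr members and the gene lists were chosen with earlier results of these data known. The text names all Egr probe sets, the list genes that passed and some with the next smallest p, and the 5 genes most like each responding Egr probe set. A list gene is represented by its brightest tested probe set. Alternatives, 21 in all, changed the block, pseudocount (1 or 64), filter (none or the 60th percentile), scaling, trend, groups fitted, or left out 1 array or 1 preparation. The number of arrays limits the precision, and standard errors were larger for dim probe sets such as that of Egr3.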

Additional observations from a re-analysis of the deposited data

How the results depend on the processing

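The comparison of Ang II with potassium passed for Egr1, Egr2 and Egr4 in all 21 alternative settings, as did the increase of Egr4 after Ang II. The fall of Egr4 after potassium passed in 20 of 21, the exception being the fit without the replicate block (log2 -0.83, adjusted p = 0.10). That fit also ended the calls of Egr2 after Ang II (0.53, adjusted p = 0.12) and of Egr1 after potassium (-0.24, adjusted p = 0.17), and changed no other call of a tested Egr probe set. Without the intensity trend the increases of Egr1 (0.41, adjusted p = 0.18) and Egr2 (0.53, adjusted p = 0.13) after Ang II did not pass, nor did the decrease of Egr1 (-0.24, adjusted p = 0.25). The latter also ended without the filter (-0.24, adjusted p = 0.092), with only the 2 groups compared in the fit (-0.24, adjusted p = 0.064) and with scaling to 1 median over all probe sets (-0.12). Leaving out 1 array or 1 preparation at a time gave Egr1 0.36 to 0.45 after Ang II and -0.29 to -0.20 after potassium, and Egr2 0.49 to 0.58 after Ang II. Egr3 changed sign in such fits, with -0.10 to 0.22 after Ang II and -0.37 to 0.040 after potassium. Pip4p2 after potassium changed from -0.11 to 0.011 with scaling to 1 median over all probe sets. Beyond what a fit's smaller number of arrays or lack of a block shows, the cause of these changes was not tested.

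The number of probe sets called in all, 404 after Ang II, 1004 after potassium and 893 between the stimuli, was 193, 499 and 442 without the replicate block, 32, 256 and 155 without the trend, and for the last comparison 553 with scaling to 1 median. That scaling moved the share of higher calls from 75.7% to 93.4% after Ang II and from 51.9% to 80.0% after potassium. Leaving out 1 array or preparation gave 145 to 443 calls after Ang II, 446 to 972 after potassium and 270 to 1006 between the stimuli, each lowest without preparation 1. Signals near the filter, such as those of Egr3 and the dim probe sets, limit what small changes can be detected.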
